A study of Gossypium hirsutum with 63 samples.

Results

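Among the 63 RNA-seq libraries of the series, 6 hold the ovules of the inbred upland cotton (Gossypium hirsutum) lines DT-8 and SJ48 at 1 day post anthesis (1 DPA), 3 of each line. They were chosen by their labels alone, with no use of measured values. DT-8 served as the pollen parent and SJ48 as the seed parent of the hybrid that the study took as low in yield heterosis. Both lines had been selfed over many generations, and no treatment is recorded. The ovules came from flowers tagged on random plants in a single field season. The hour of picking and the number of flowers in a replicate are not stated in the sources. The other ovule libraries are 3 each of the inbred lines Z98-15 and 851-2 and of the 3 hybrids of SJ48 with Z98-15, 851-2 and DT-8. Leaves and flower buds of the same lines were sequenced as well.

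Cotton lint consists of single cells that grow out of the outer epidermis of the ovule. These fibre initials bulge around the day of anthesis, so a 1 DPA ovule holds fibre initials, seed coat, nucellus and embryo sac together. HD-ZIP IV homeodomain factors and MIXTA-like MYB factors act in epidermal and fibre cells. Sucrose delivered by the phloem is split by sucrose synthase and invertase to feed cell growth, and jasmonate, gibberellin, brassinosteroid and ethylene all act on ovule and fibre growth. Because upland cotton is an allotetraploid, most genes exist as a copy in the A and a copy in the D subgenome, and the letter and number in a name such as Gh_A13G1655 give the subgenome and chromosome.

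Values are FPKM (fragments per kilobase of transcript, scaled to the mapped fragments of the library). All fold changes are on the log2(FPKM + 1) scale, DT-8 minus SJ48, which understates the change of genes with low values. Of 80325 genes in the table, 59372 exceeded 0.5 FPKM in at least 1 ovule library and were tested. A gene was called when its adjusted p from limma was under 0.05 and its log2 fold change was above 1 or below -1. The sources give all 3 DT-8 ovule libraries a higher share of bases at Q30, a measure of base-call quality, and a lower share of multi-mapped reads than all 3 SJ48 ovule libraries. Line and sequencing quality therefore cannot be told apart within these 6 libraries. Replicates 1 and 2 of Z98-15 share the lower Q30 with SJ48, while replicate 3 of Z98-15 shares the higher Q30 with DT-8, and their values are given beside the results they touch. The sources also give the bases sequenced for each library, which overlap between the ovule libraries of DT-8 and SJ48. FPKM keep no read counts, so the number of reads behind each gene's value is not known.

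Marker genes were compared between the ovules of the 2 lines. No leaf or flower bud values enter this comparison, so it does not test the labelled tissue. Of the ovule and seed identity list, 57 genes passed the filter in leaf and 63 in flower buds, against 44 in ovule. Protodermal factor 1, an epidermal protein gene, was among the most abundant markers, and its copy Gh_D04G0335 had 766, 892 and 1036 FPKM in DT-8, against 1131, 896 and 1051 FPKM in SJ48. Descriptions with the names SEEDSTICK or INNER NO OUTER were not found, so the named ovule markers were BEL1-like and AINTEGUMENTA-like genes. The ovule and seed identity list is wider than these markers. None of the 44 tested ovule and seed identity genes was called by limma (4 had an unadjusted p under 0.05), and the list's summed level was 86.5, 82.3 and 83.0 FPKM in DT-8, against 96.1, 94.8 and 92.4 FPKM in SJ48. Photosynthesis genes, of which 0 rose and 2 fell of 217 tested, summed to 417, 359 and 373 FPKM in DT-8 and 391, 417 and 485 FPKM in SJ48, with overlap. The pollen and anther genes summed to 322, 333 and 341 FPKM in DT-8, below all 3 SJ48 libraries at 389.8, 380.4 and 394 FPKM, and 0 of the 55 tested were called by limma (11 had an unadjusted p under 0.05). The part of such shifts in the results below was not tested. In whole ovules, fewer cells of a type and less RNA per cell cannot be told apart.

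The 2 lines differed in 749 genes, of which 383 were higher and 366 lower in DT-8. These calls made up 1.26% of the genes tested, 0.645% higher and 0.616% lower. The median log2 fold change of all tested genes was -0.0043, and 9373 of them (15.8%) had an unadjusted p under 0.05. At the thresholds the study names, an unadjusted p under 0.05 with the same fold change, 1393 genes passed (2.35%), 596 higher and 797 lower. The 3 libraries of DT-8 and the 3 of SJ48 did not overlap in 741 of the 749 called genes. The calls were made by fold and adjusted p on the same libraries, so this separation is largely set by the selection. Its share over all tested genes was not counted. A description was given for 312 of the called genes, and the account below is mostly of these. The lists below hold described genes only, while the 1.26% also counts loci without a gene name, which gave 337 of the calls. Of 44588 tested genes with a chromosome in the name, 387 (0.868%) were called. In a principal component analysis of the 6 libraries the component with the largest share, 36.1%, parted the lines, and the next, 18.4%, parted DT-8 replicate 1 from DT-8 replicates 2 and 3.

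A group of heat shock genes was higher in DT-8 ovules. Of 310 tested genes whose description names a heat shock protein or factor, 6 were called higher and 0 lower (1.94%), against 1.26% of all tested genes, and the list median was 0.068 (all tested genes, -0.0043). The summed level of the list was 3390.3, 3449 and 3906 FPKM in DT-8, above all 3 SJ48 libraries at 2785, 2832 and 2778 FPKM, and 3397, 3116 and 3042 FPKM in Z98-15. It was 3023, 3253 and 2981 FPKM in 851-2, so SJ48 was the lowest of the inbred lines. The hybrid libraries ran between 2455 and 3420 FPKM. Cells make heat shock proteins as chaperones that keep other proteins folded under stress, and heat shock transcription factor A2 is a factor that in Arabidopsis sustains this response. Both called copies of factor A2 were higher in all 3 DT-8 libraries. Gh_D13G2018 had 35.5, 37.9 and 60.9 FPKM in DT-8, against 12.9, 14.2 and 11.7 FPKM in SJ48 (log2 fold change 1.68 ± 0.16 (SE), limma adjusted p = 5.42e-06). Gh_A13G1655 had 23.3, 22.7 and 49.8 FPKM in DT-8, against 8.47, 11.6 and 8.71 FPKM in SJ48 (log2 fold change 1.55 ± 0.29 (SE), limma adjusted p = 0.0042). Each copy was at its highest in DT-8 replicate 3, and the groups did not overlap.

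The other 4 called members were chaperones. Gh_D12G1971, a mitochondrial small heat shock protein that holds unfolding proteins, had 54.01, 78.4 and 119.8 FPKM in DT-8, against 19.00, 16.6 and 16.5 FPKM in SJ48 (log2 fold change 2.14 ± 0.27 (SE), limma adjusted p = 9.4e-05). The HSP90 gene Gh_D13G1363 (heat shock protein 81-3) had 12.2, 14.3 and 22.2 FPKM in DT-8, against 4.26, 4.92 and 4.66 FPKM in SJ48 (log2 fold change 1.57 ± 0.24 (SE), limma adjusted p = 0.000678). The inducible HSP90.1 was called in both subgenomes. Its copy Gh_A12G2300 had 5.96, 14.2 and 20.5 FPKM in DT-8, against 2.46, 3.297 and 2.13 FPKM in SJ48 (log2 fold change 1.87 ± 0.43 (SE), limma adjusted p = 0.0167), and Gh_D12G2436 had 3.83, 8.15 and 11.6 FPKM in DT-8, against 2.24, 2.400 and 2.75 FPKM in SJ48 (log2 fold change 1.25 ± 0.27 (SE), limma adjusted p = 0.0118). In each of these 4 genes DT-8 replicate 3 was the highest and DT-8 replicate 1 the lowest of the DT-8 libraries, yet replicate 1 still exceeded all SJ48 libraries. Without DT-8 replicate 3, 4 heat shock genes were called: Gh_A12G2300 (adjusted p = 0.0914) and Gh_D12G2436 (adjusted p = 0.0671) were lost. Without DT-8 replicate 1, 10 were called, and 4 without SJ48 replicate 1 or without DT-8 replicate 2. With the 6 libraries fitted alone the count was 3.

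In a list drawn up after the values were seen, 4 of 491 co-chaperone and peptidyl-prolyl isomerase genes were higher and 1 was lower (1.02%). This share lay between the 1.26% of all tested genes and the 0.868% of tested genes with a chromosome in the name. Gh_D09G0981 (DNAJ homologue 3), an HSP40 that works with HSP70, had 34.7, 42.3 and 64.3 FPKM in DT-8, against 11.8, 16.1 and 13.3 FPKM in SJ48 (log2 fold change 1.67 ± 0.21 (SE), limma adjusted p = 8.09e-05). A pair of FKBP-type isomerases, which help proteins fold around proline, rose in both subgenomes. Gh_D09G1979 had 22.4, 33.9 and 61.1 FPKM in DT-8, against 9.54, 10.5 and 10.1 FPKM in SJ48 (log2 fold change 1.75 ± 0.23 (SE), limma adjusted p = 0.000149). Gh_A09G1859 had 20.6, 33.8 and 57.2 FPKM in DT-8, against 9.71, 12.6 and 11.1 FPKM in SJ48 (log2 fold change 1.55 ± 0.23 (SE), limma adjusted p = 0.000632). The member that fell was the cyclophilin-40 gene Gh_D13G0372, with 0.3398, 0.279 and 0.258 FPKM in DT-8 and 2.45, 3.21 and 1.56 FPKM in SJ48, which was called lower in leaf and flower buds too.

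Galactinol synthases start the synthesis of raffinose sugars, which protect cells under stress, and in Arabidopsis some are targets of heat shock factor A2. Of 7 tested, 2 were called, both higher (28.6%; all tested genes, 1.26%), in a list also drawn up after the values were seen. Galactinol synthase 1, Gh_A11G0980, had 22.9, 26.9 and 42.5 FPKM in DT-8, against 10.3, 10.8 and 8.42 FPKM in SJ48 (log2 fold change 1.51 ± 0.19 (SE), limma adjusted p = 0.0001). Galactinol synthase 2, Gh_A08G1811, had 6.91, 5.22 and 4.65 FPKM in DT-8, against 1.58, 1.58 and 1.85 FPKM in SJ48 (log2 fold change 1.29 ± 0.23 (SE), limma adjusted p = 0.00239). Pyruvate decarboxylase-2, Gh_D05G1486, an enzyme of ethanol fermentation named here after its values were seen, had 8.67, 12.8 and 17.2 FPKM in DT-8, against 3.16, 3.41 and 2.93 FPKM in SJ48 (log2 fold change 1.69 ± 0.1996 (SE), limma adjusted p = 4.91e-05). Like the heat shock genes, galactinol synthase 1 and pyruvate decarboxylase-2 were highest in DT-8 replicate 3, whereas galactinol synthase 2 was highest in DT-8 replicate 1.

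**Figure D1:**
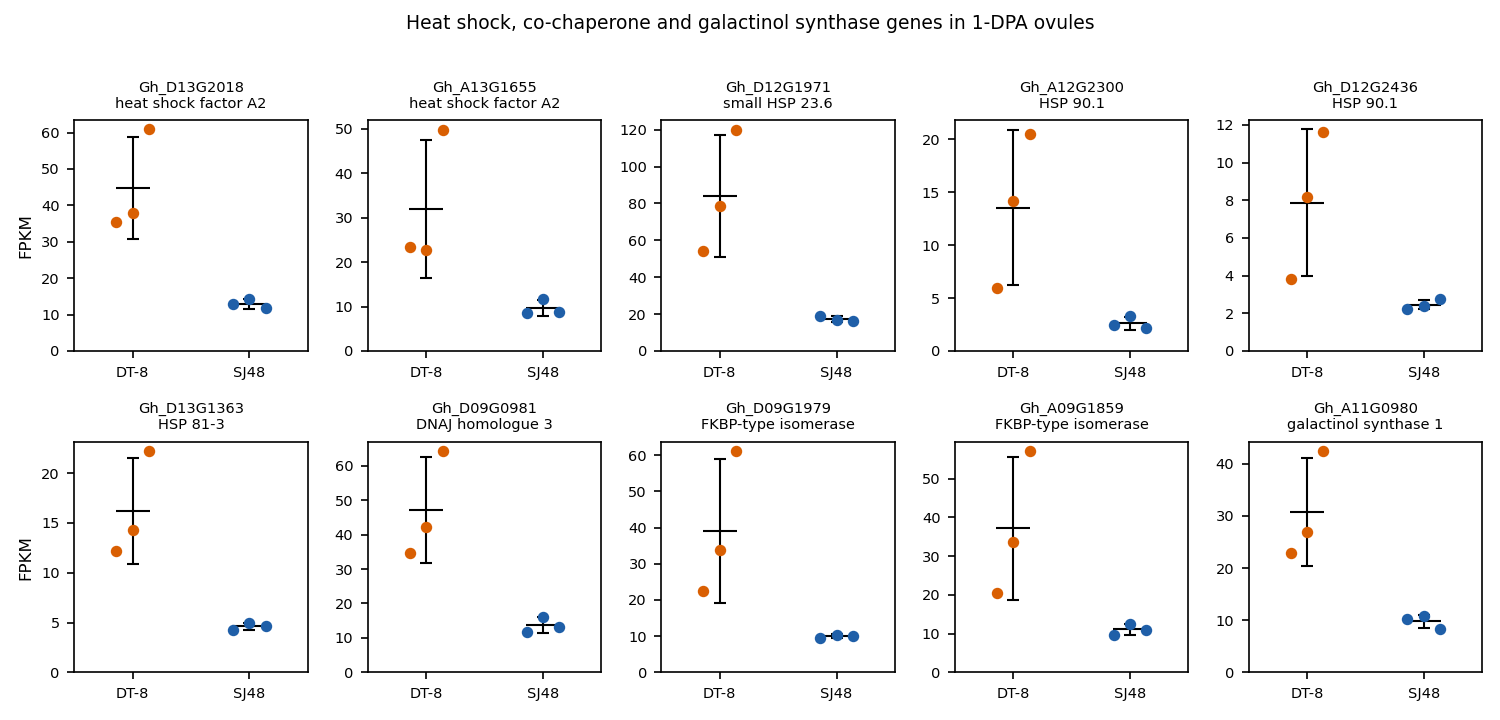
FPKM of 10 heat shock, co-chaperone and galactinol synthase genes in 1 DPA ovules of DT-8 (orange, left) and SJ48 (blue, right). Points are replicates 1 to 3 from left to right within a line, and bars give the mean ± SD (n = 3 each). In all 10 genes the lowest DT-8 library lies above the highest SJ48 library.

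In the other tissues these genes were not called. In leaf, 0 heat shock genes were higher and 2 lower of 316 tested, and in flower buds 0 of 324 were called by limma (23 had an unadjusted p under 0.05). Factor A2 copy Gh_D13G2018 averaged 18.9 ± 0.744 FPKM in DT-8 and 21.8 ± 12.5 FPKM in SJ48 in leaf (SD, n = 3 each; log2 fold change -0.059 ± 0.28 (SE), limma adjusted p = 0.994) and 15.3 ± 3.52 FPKM in DT-8 and 25.4 ± 1.11 FPKM in SJ48 in flower buds (log2 fold change -0.72 ± 0.17 (SE), limma adjusted p = 0.0544). The test of ovule minus leaf itself was past the threshold for Gh_A12G2300 alone of the 6 heat shock genes, and that of ovule minus flower buds for Gh_D13G2018 alone. In Z98-15 ovules Gh_D13G2018 had 31.1, 31.4 and 32.8 FPKM in replicates 1 to 3, so that the library with the higher Q30, replicate 3, was close to the other 2. The 9 hybrid ovule libraries lay between 6.41 and 15.4 FPKM. With the Q30 group as a covariate 2 of the 6 heat shock genes kept their call, Gh_D13G2018 (limma adjusted p = 0.0141) and Gh_D12G1971 (adjusted p = 0.0458). The other 4 lost it, namely Gh_D13G1363 (adjusted p = 0.206), Gh_A13G1655 (0.369), Gh_D12G2436 (0.469) and Gh_A12G2300 (0.599), and 1 gene outside the 6 was called, so that the list had 3 higher and 0 lower.

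The epidermal regulators of the fibre-bearing cell layer were mostly not called. Of 14 tested genes for HD-ZIP IV and protodermal factors, 1 was called by limma (7.14%; all tested genes, 1.26%). An unadjusted p under 0.05 was reached by 7 of the 14 (50%; all tested genes, 15.8%). The log2 fold change was positive in 6 and negative in 8. The called gene was Gh_D10G0146 (protodermal factor 2, which in Arabidopsis keeps epidermal identity), with 9.69, 8.88 and 9.26 FPKM in DT-8, against 4.105, 3.34 and 3.71 FPKM in SJ48 (log2 fold change 1.13 ± 0.11 (SE), limma adjusted p = 7.94e-06). The A-subgenome gene with the same description, Gh_A10G0143, had 9.96, 9.46 and 10.1 FPKM in DT-8, against 10.9, 10.3 and 10.96 FPKM in SJ48 (log2 fold change -0.11 ± 0.088 (SE), limma adjusted p = 0.626). The higher level was thus seen in the D-subgenome gene, while the A-subgenome gene lay slightly lower in DT-8 without passing the test. A homeodomain GLABROUS 2 gene, Gh_A12G1446, had 4.396, 3.98 and 4.22 FPKM in DT-8, against 2.73, 2.67 and 2.93 FPKM in SJ48 (log2 fold change 0.46, adjusted p = 0.0318), which is under the fold required. Of 265 tested MYB genes 1 was called: Gh_A13G0689 (MYB106), a MIXTA-like factor whose relatives act in fibre initiation, had 6.91, 5.49 and 6.21 FPKM in DT-8, against 2.52, 1.98 and 3.17 FPKM in SJ48 (log2 fold change 1.03 ± 0.14 (SE), limma adjusted p = 0.000235). Without SJ48 replicate 2 or DT-8 replicate 1 its log2 fold change was 0.91 or 0.96, just under the fold required. The genes named as markers are those described as BEL1-like, AINTEGUMENTA-like, homeodomain GLABROUS or protodermal factor, and 42 of them were tested. The 41 that were not called ranged in log2 fold change between -0.74 and 0.46. Members of the wider ovule and epidermis lists with other descriptions are not counted in this range.

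Cell wall and surface genes changed in a few members. The SKU5 similar 5 genes encode secreted relatives of multicopper oxidases, of the family of SKU5, a surface protein that acts in directional root growth in Arabidopsis. Their 4 called copies were the called members of a list of 82 fasciclin, arabinogalactan, COBRA and SKU5 genes (4 higher, 0 lower; 4.88%, against 1.26% of all tested genes), and with the Q30 group as a covariate this list had 2 higher and 1 lower. Gh_A01G1434 had 9.06, 10.7 and 10.1 FPKM in DT-8, against 2.81, 2.28 and 1.86 FPKM in SJ48 (log2 fold change 1.73 ± 0.24 (SE), limma adjusted p = 0.000242). Gh_D01G1673 had 11.3, 12.9 and 12.4 FPKM in DT-8, against 3.91, 3.01 and 2.93 FPKM in SJ48 (log2 fold change 1.63 ± 0.24 (SE), limma adjusted p = 0.000424). The copies on chromosome 12 were weaker: Gh_A12G0322 changed by 1.09 (adjusted p = 0.0495) and Gh_D12G0344 by 1.08 (adjusted p = 0.0314). Both lost their calls whenever any 1 of the 6 libraries was left out (adjusted p between 0.0686 and 0.165). In Z98-15 the copy Gh_A01G1434 had 14.7, 19.8 and 13.1 FPKM, above DT-8, and the hybrids had between 0.6301 and 4.42 FPKM.

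Among the enzymes that loosen or cut wall polymers, xyloglucan endotransglucosylase/hydrolase 7 (Gh_Sca010556G01) fell to 2.31, 3.404 and 3.17 FPKM in DT-8, against 7.79, 7.09 and 7.67 FPKM in SJ48 (log2 fold change -1.11 ± 0.199 (SE), limma adjusted p = 0.00264). Without DT-8 replicate 1 its log2 fold change was -0.99. A pectate lyase, Gh_D12G1856, had 3.72, 4.600 and 5.44 FPKM in DT-8, against 13.02, 12.3 and 10.9 FPKM in SJ48 (log2 fold change -1.23 ± 0.13 (SE), limma adjusted p = 1.58e-05). These were the only members called among 54 xyloglucan and 187 pectin genes. No call was made by limma among 61 expansin, 77 cellulose synthase and 35 endoglucanase genes, of which 14, 16 and 9 had an unadjusted p under 0.05. Beta-6 tubulin (Gh_A07G1077), a subunit of the microtubules that guide wall deposition, had 17.4, 13.5 and 16.2 FPKM in DT-8, against 55.7, 46.1 and 52.2 FPKM in SJ48 (log2 fold change -1.65 ± 0.11 (SE), limma adjusted p = 4.34e-08), the single call among 240 tubulin and actin genes.

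Among the sugar enzymes, 2 sucrose synthase 3 genes were called lower in DT-8. The summed level of the sucrose enzyme list overlapped, at 934, 1088 and 1165 FPKM in DT-8 and 1074, 1055 and 1091 FPKM in SJ48. The list median was 0.0016. Sucrose synthase splits sucrose into fructose and UDP-glucose, and its suppression impairs fibre growth in cotton. Sucrose synthase 3 fell in both subgenomes. Gh_D08G1309 had 25.7, 26.4 and 27.4 FPKM in DT-8, against 54.9, 52.8 and 58.4 FPKM in SJ48 (log2 fold change -1.04 ± 0.13 (SE), limma adjusted p = 7.64e-05). Gh_A08G1031 had 30.7, 35.8 and 36.4 FPKM in DT-8, against 73.3, 73.6 and 70.9 FPKM in SJ48 (log2 fold change -1.07 ± 0.14 (SE), limma adjusted p = 0.000127). The replicates of each line lay close together and far from the other line, but the changes were near the fold required: without SJ48 replicate 3 the D copy changed by -0.997, and without DT-8 replicate 1 the A copy by -0.99. The other called member of 66 sucrose enzyme genes (4.55% called; all tested genes, 1.26%) rose: Gh_A03G0507, of glycosyl hydrolase family 32, which includes the invertases, had 5.198, 4.79 and 4.68 FPKM in DT-8, against 0.00979, 0.0467 and 0 FPKM in SJ48 (log2 fold change 2.53 ± 0.11 (SE), limma adjusted p = 1.55e-10). It had 0.0248, 0 and 0 FPKM in Z98-15 and 5.65 to 6.18 FPKM in 851-2, so it was high in 2 of the 4 inbred lines. Beta-amylase 1 (Gh_A10G2293), which breaks down starch, was the only call among 102 starch enzyme genes, with 0.679, 0.628 and 0.583 FPKM in DT-8, against 2.57, 2.56 and 3.05 FPKM in SJ48 (log2 fold change -1.19 ± 0.27 (SE), limma adjusted p = 0.0161). That call was lost without SJ48 replicate 3, DT-8 replicate 2 or DT-8 replicate 3 (adjusted p between 0.0536 and 0.0701). None of 133 sugar transporter genes was called by limma, and 24 had an unadjusted p under 0.05.

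Jasmonate genes leaned towards DT-8. Of 60 tested, 40 had a positive and 19 a negative log2 fold change, the median was 0.30 (all tested genes, -0.0043), and 3 were called, all higher (5%; all tested genes, 1.26%; 1 without DT-8 replicate 2, 6 without DT-8 replicate 1). An unadjusted p under 0.05 was reached by 31 of the 60 (51.7%; all tested genes, 15.8%). With the Q30 group as a covariate 3 jasmonate genes were called higher, none of them among these 3. The summed level of the list was 591, 576 and 545 FPKM in DT-8, above all 3 SJ48 libraries at 457, 454 and 439.7 FPKM, and 649, 738 and 679.7 FPKM in Z98-15. It was 632, 536 and 535 FPKM in 851-2, so SJ48 was the lowest of the inbred lines. The hybrid libraries ran between 391 and 560 FPKM. Allene oxide cyclase makes the ring of the jasmonate precursor in plastids, and 2 genes with neighbouring numbers were called. Gh_D08G0414 had 18.9, 12.2 and 11.2 FPKM in DT-8, against 2.83, 2.66 and 2.597 FPKM in SJ48 (log2 fold change 1.99 ± 0.25 (SE), limma adjusted p = 8.09e-05). Gh_D08G0415 had 4.81, 6.104 and 4.73 FPKM in DT-8, against 1.51, 3.08 and 1.78 FPKM in SJ48 (log2 fold change 1.02 ± 0.21 (SE), limma adjusted p = 0.00747). The repressor JAZ1, Gh_A08G2199, which is itself switched on by jasmonate, had 7.697, 11.6 and 9.22 FPKM in DT-8, against 5.69, 3.16 and 3.61 FPKM in SJ48 (log2 fold change 1.04 ± 0.26 (SE), limma adjusted p = 0.0316).

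The stronger cyclase gene kept its call without any 1 library, while the other 2 calls were less firm. JAZ1 was lost without SJ48 replicate 2 or 3 or DT-8 replicate 2 or 3 (adjusted p between 0.0829 and 0.14), and the log2 fold change of Gh_D08G0415 was 0.88, 0.95 and 0.92 without SJ48 replicate 1, SJ48 replicate 3 or DT-8 replicate 2. Fatty acid desaturase 8, a plastid enzyme that makes the trienoic fatty acids from which jasmonate is built, rose in both subgenomes. Gh_D04G1274 had 9.34, 12.6 and 11.3 FPKM in DT-8, against 4.600, 4.602 and 3.23 FPKM in SJ48 (log2 fold change 1.23 ± 0.22 (SE), limma adjusted p = 0.0028). Gh_A04G0783 had 16.6, 17.8 and 18.1 FPKM in DT-8, against 8.76, 6.88 and 7.73 FPKM in SJ48 (log2 fold change 1.08 ± 0.15 (SE), limma adjusted p = 0.000359). In leaf and flower buds 0 of the 66 and 67 tested jasmonate genes were called by limma, and 7 and 4 had an unadjusted p under 0.05.

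Other hormone genes changed singly. An ethylene-forming enzyme, which makes ethylene from its precursor, was the only call among 86 ethylene genes: the joined locus of Gh_D07G0841 and Gh_D07G0842 had 12.8, 17.9 and 10.2 FPKM in DT-8, against 2.69, 2.32 and 2.28 FPKM in SJ48 (log2 fold change 2.06 ± 0.395 (SE), limma adjusted p = 0.00469). Of 76 gibberellin and GRAS genes, 1 rose and 2 fell (3.95%; all tested genes, 1.26%). Gibberellin 2-oxidase 1 (Gh_A13G1308), which inactivates gibberellin, had 1.88, 1.900 and 0.956 FPKM in DT-8, against 5.42, 4.27 and 4.95 FPKM in SJ48 (log2 fold change -1.21 ± 0.26 (SE), limma adjusted p = 0.0119), and lost its call without SJ48 replicate 1 or DT-8 replicate 3 (adjusted p = 0.0557 and 0.0697). The gibberellin-regulated peptide genes moved in both directions. Gh_Sca034072G01 rose to 49.8, 34.8 and 36.5 FPKM in DT-8, against 13.4, 14.6 and 15.4 FPKM in SJ48, and Gh_A09G2394 fell to 16.7, 16.02 and 16.1 FPKM in DT-8, against 44.8, 41.4 and 42.1 FPKM in SJ48. BES1/BZR1 homolog 4 (Gh_D01G0390), of the factors that carry the brassinosteroid signal, had 22.9, 22.1 and 20.7 FPKM in DT-8, against 10.99, 7.62 and 7.16 FPKM in SJ48 (log2 fold change 1.28 ± 0.13 (SE), limma adjusted p = 6.52e-06), the single call among 66 brassinosteroid genes. No gene was called among 247 auxin, 125 cytokinin and 77 abscisic acid genes by limma, and 52, 36 and 12 of them had an unadjusted p under 0.05.

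WRKY factors, which regulate defence and senescence, were lower in 4 and higher in 1 of 153 tested genes (3.27%; all tested genes, 1.26%). The list as a whole did not lean the same way: 90 had a positive and 63 a negative log2 fold change. The list median was 0.059 (all tested genes, -0.0043). With a pseudocount of 0.1 the count was 7 higher and 4 lower. Without SJ48 replicate 1 or DT-8 replicate 2 the count was 1 higher and 2 lower, and with the Q30 group as a covariate 1 higher and 1 lower. Gh_D07G0318 (WRKY DNA-binding protein 3) had 0.772, 0.264 and 0.5397 FPKM in DT-8, against 5.71, 3.89 and 5.76 FPKM in SJ48 (log2 fold change -2.003 ± 0.2998 (SE), limma adjusted p = 0.000556). Its neighbour by number, Gh_D07G0317 (WRKY 18), had 1.08, 0.981 and 1.01 FPKM in DT-8, against 4.03, 3.52 and 2.004 FPKM in SJ48, and this call (adjusted p = 0.0467) was lost without any 1 library other than SJ48 replicate 3 (adjusted p between 0.102 and 0.182). WRKY 70, which in Arabidopsis balances salicylate and jasmonate responses, fell in a pair of genes: Gh_D06G1939 had 1.07, 0.846 and 1.06 FPKM in DT-8, against 3.703, 3.51 and 3.596 FPKM in SJ48 (log2 fold change -1.21 ± 0.25 (SE), limma adjusted p = 0.0087), and Gh_D04G0112 had 2.77, 1.05 and 1.69 FPKM in DT-8, against 8.48, 4.42 and 4.32 FPKM in SJ48 (log2 fold change -1.24 ± 0.26 (SE), limma adjusted p = 0.00915). Gh_D04G0112 was lost without SJ48 replicate 1 or DT-8 replicate 2 (adjusted p = 0.0567 and 0.057). The WRKY gene that rose, Gh_A12G2121, had 4.29, 8.97 and 7.46 FPKM in DT-8, against 2.79, 1.29 and 2.52 FPKM in SJ48, and was lost without SJ48 replicate 2, DT-8 replicate 2 or DT-8 replicate 3 (adjusted p between 0.0659 and 0.0892).

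Factors of other families were called as well. Homeobox protein 40, an HD-ZIP I factor that acts in bud arrest in Arabidopsis, fell in both subgenomes. Gh_D11G1879 had 7.301, 7.86 and 6.55 FPKM in DT-8, against 40.3, 47.3 and 47.1 FPKM in SJ48 (log2 fold change -2.48 ± 0.21 (SE), limma adjusted p = 1.15e-06). Gh_A11G1721, named after its values were seen, had 18.5, 16.4 and 15.9 FPKM in DT-8, against 60.6, 59.1 and 71.4 FPKM in SJ48 (log2 fold change -1.85 ± 0.25 (SE), limma adjusted p = 0.000192). Z98-15 was in between for the D copy, with 14.8, 18.2 and 13.1 FPKM. Among the factors that rose was the MADS-box gene Gh_A02G1617, with 10.4, 10.5 and 10.2 FPKM in DT-8, against 2.72, 3.002 and 2.79 FPKM in SJ48 (log2 fold change 1.57 ± 0.076 (SE), limma adjusted p = 6.96e-10), of a family that sets floral organ identity. SJ48 stood apart for this gene, since Z98-15 had 12.3, 11.9 and 11.4 FPKM and 851-2 had 10.9 to 11.9 FPKM. Gh_D11G1074 (NAC domain containing protein 45, which acts in phloem sieve elements in Arabidopsis) had 41.02, 45.2 and 53.5 FPKM in DT-8, against 18.9, 20.4 and 14.8 FPKM in SJ48 (log2 fold change 1.32 ± 0.195 (SE), limma adjusted p = 0.000479). Redox responsive transcription factor 1 (Gh_D02G2086), a stress-induced ERF, had 5.69, 2.55 and 3.33 FPKM in DT-8, against 0.0835, 0 and 0 FPKM in SJ48 (log2 fold change 2.19 ± 0.38 (SE), limma adjusted p = 0.00219).

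CYCLIN D1;1 (Gh_D03G0269), of the D-type cyclins that start cell division, was lower in DT-8. The list of 346 cyclin and histone genes had 2 higher and this 1 lower (0.867%; all tested genes, 1.26%; tested genes with a chromosome in the name, 0.868%). Gh_D03G0269 had 0.178, 0.0736 and 0.0174 FPKM in DT-8, against 3.88, 4.35 and 4.81 FPKM in SJ48 (log2 fold change -2.29 ± 0.23 (SE), limma adjusted p = 5.86e-06). Z98-15 resembled SJ48 with 4.499, 2.82 and 4.48 FPKM, and 851-2 resembled DT-8 with 0 to 0.0573 FPKM. Dormancy-associated protein-like 1, of a family abundant in resting buds and named here after its values were seen, fell in both subgenomes. Gh_A06G1139 had 52.3, 52.3 and 39.2 FPKM in DT-8, against 160.5, 131 and 175 FPKM in SJ48 (log2 fold change -1.68 ± 0.25 (SE), limma adjusted p = 0.000621), and Gh_D06G1400 had 128, 116 and 104 FPKM in DT-8, against 281, 254 and 288 FPKM in SJ48 (log2 fold change -1.24 ± 0.17 (SE), limma adjusted p = 0.000172). Glutamine-dependent asparagine synthase 1 (Gh_D09G0861), also chosen after its values were seen, which is induced in the dark and under sugar shortage in Arabidopsis, had 2.69, 3.81 and 3.54 FPKM in DT-8, against 14.8, 14.7 and 22.4 FPKM in SJ48 (log2 fold change -2.06 ± 0.38 (SE), limma adjusted p = 0.0039).

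**Figure D2:**
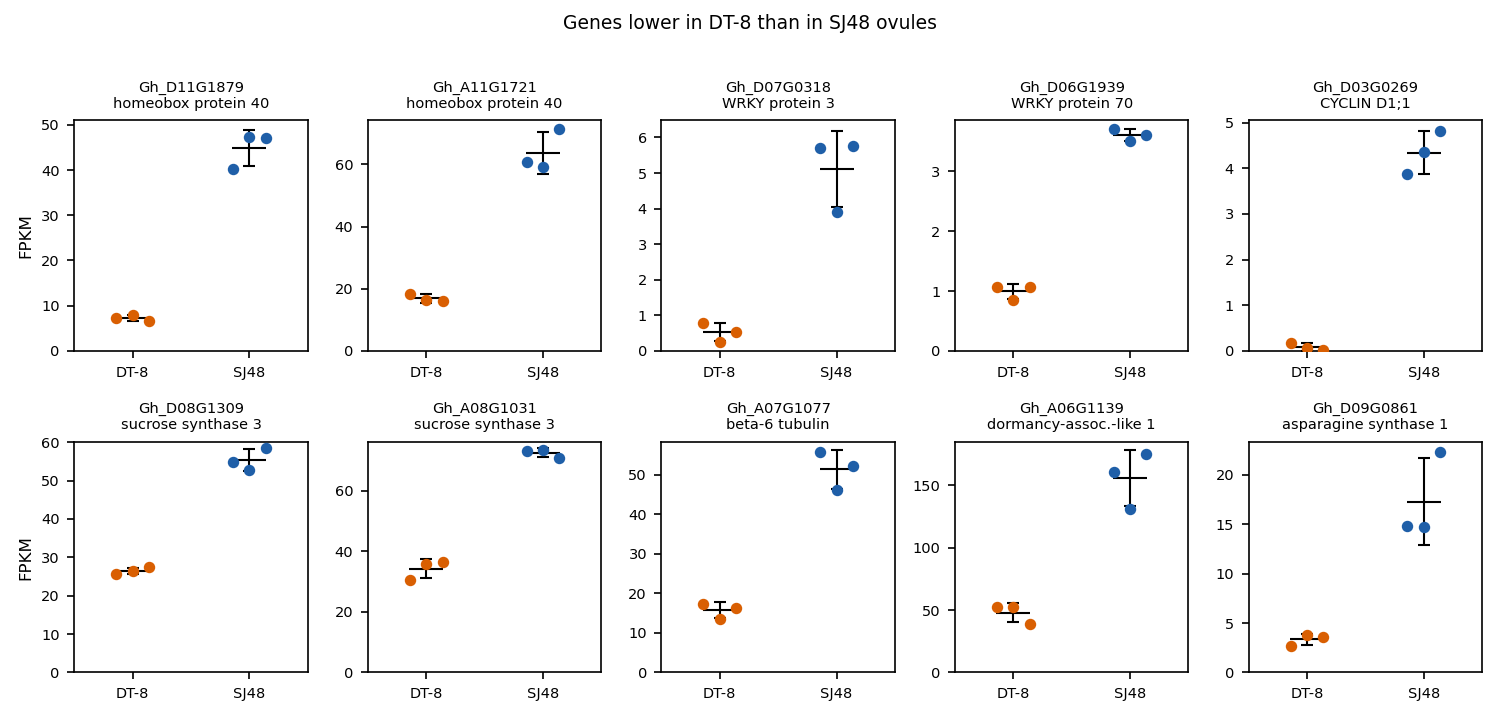
FPKM of 10 genes that were lower in the 1 DPA ovules of DT-8 (orange, left) than of SJ48 (blue, right). Points are replicates 1 to 3 from left to right within a line, and bars give the mean ± SD (n = 3 each). No DT-8 library overlaps an SJ48 library in any of the 10 genes.

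The lists by description differed in how many members were called. Lists drawn up after the values were seen are left out of this count. Of 50 lists, 13 had no called member, 32 had 1 to 3, and 5 had over 3. The 5 were the heat shock, WRKY, SKU5 and related surface protein, ribosomal protein and NB-ARC lists. NB-ARC genes, which encode intracellular immune receptors, were split, with 3 higher and 3 lower of 243 (2.47%; all tested genes, 1.26%). Ribosomal proteins had 1 higher and 3 lower of 966 tested, a smaller share (0.414%) than all genes. Small changes in this list were mostly upward, with 660 positive and 277 negative and a median of 0.104. Its summed level was 27948, 26181 and 27776 FPKM in DT-8, above all 3 SJ48 libraries at 25460, 24832 and 25701 FPKM. List medians ran between -0.14 and 0.30, and the jasmonate list was at the upper end.

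**Figure D3:**
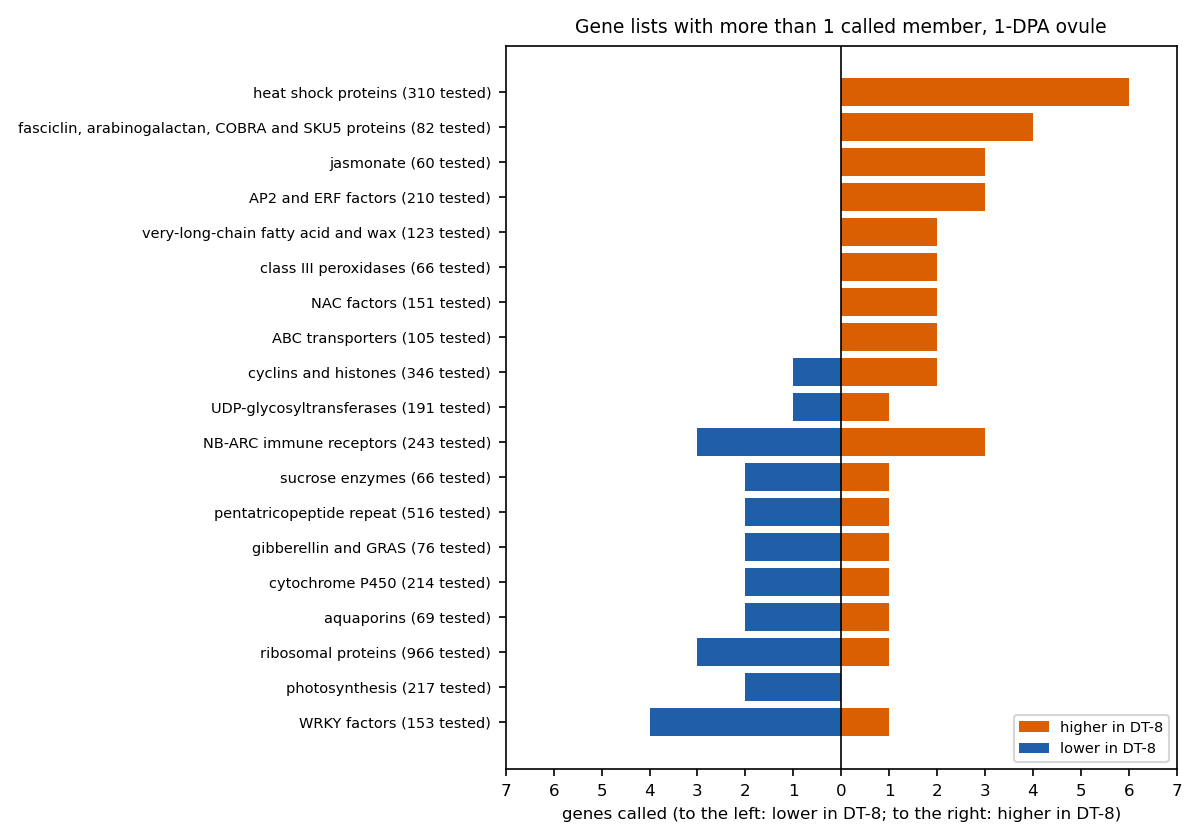
Number of genes called in 1 DPA ovules for those of the 50 lists by description with more than 1 called member. Lists drawn up after the values were seen are not shown. Bars to the right count genes higher in DT-8 and bars to the left genes lower in DT-8, and the number tested is given after each name. Heat shock genes reach 6 to the right with 0 to the left, and WRKY genes 4 to the left and 1 to the right.

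Among the changes of largest size were genes listed at or near 0 in 1 of the lines. The glycine-rich protein gene Gh_D05G1561 had 65.5, 63.99 and 71.5 FPKM in DT-8 and was listed at 0 in all 3 SJ48 libraries (adjusted p = 3.38e-17), and it was listed at 0 in the ovules of Z98-15, 851-2 and all 3 hybrids as well. An EXS family gene, Gh_A09G0220, of a family that includes phosphate exporters, had 22.9, 19.3 and 18.4 FPKM in DT-8, against 0.0201, 0.0813 and 0.148 FPKM in SJ48 (log2 fold change 4.29 ± 0.14 (SE), limma adjusted p = 7.91e-12). A 14-3-3 protein gene, general regulatory factor 2 (Gh_A01G0110), had 12.95, 9.87 and 10.3 FPKM in DT-8, against 1.16, 1.28 and 1.23 FPKM in SJ48 (log2 fold change 2.42 ± 0.15 (SE), limma adjusted p = 2.28e-08). The level in SJ48 was at or below 1.28 FPKM in all 3 genes. In the other direction, the calcium-dependent kinase Gh_A05G2005 was listed at 0 in all 3 DT-8 libraries, against 6.15, 5.67 and 5.02 FPKM in SJ48 (adjusted p = 4.68e-09). The Rossmann-fold protein gene Gh_A09G1448 had 4.13, 3.54 and 4.74 FPKM in DT-8, against 63.8, 68.9 and 65.2 FPKM in SJ48 (log2 fold change -3.71 ± 0.14 (SE), limma adjusted p = 2.77e-11), and Z98-15 had 4.57, 3.303 and 4.03 FPKM. A kelch repeat gene, Gh_A06G0372, had 0.0194, 0 and 0 FPKM in DT-8, against 7.63, 8.33 and 9.37 FPKM in SJ48.

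Some zeros occurred in ovules alone. Gh_D07G0812, for the ribosomal protein L27e of the large subunit, was listed at 0 in all 3 DT-8 ovule libraries, against 35.7, 33.4 and 37.1 FPKM in SJ48 (adjusted p = 0.000606). In leaf it averaged 39.9 ± 1.94 FPKM in DT-8 and 26.6 ± 5.27 FPKM in SJ48 and in flower buds 24.6 ± 2.81 FPKM in DT-8 and 26.01 ± 2.41 FPKM in SJ48 (SD, n = 3 each). An exact 0 for a gene that other tissues of the same line use can be a failed estimate of the transcript, and no fold is given. Ribosomal L29 (Gh_D08G0031), with 12.04, 12.3 and 11.7 FPKM in DT-8, against 54.2, 50.1 and 51.8 FPKM in SJ48 (log2 fold change -2.03 ± 0.22 (SE), limma adjusted p = 2.13e-05), was by contrast lower in leaf and flower buds too. Of the 8 called genes whose groups overlapped, Gh_A07G2278 (ribosomal protein S5) was listed at 0 in all 3 DT-8 libraries and had 24.6, 0 and 24.3 FPKM in SJ48. Its call was lost without any 1 library other than SJ48 replicate 2 (adjusted p between 0.0765 and 0.155).

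The same contrast was fitted in leaf and flower buds, which have their own libraries and in which the Q30 of the lines overlaps. In leaf 532 genes were called (0.886% of those tested) and in flower buds 412 (0.646%). Of the 749 ovule calls, 703 were tested in leaf, where 250 were called in the same direction and 3 in the opposite one. In flower buds 242 of 731 were called in the same and 0 in the opposite direction. The sign was shared by 79.7% of ovule calls in leaf and 80.03% in flower buds, against 56.7% and 53.4% of all genes tested in both tissues. Thus 209 genes were called alike in all 3 tissues, 117 higher and 92 lower in DT-8, among them Gh_A01G0110, Gh_A05G2005, Gh_A09G0220 and Gh_A09G1448.

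The difference between tissues was tested itself. Ovule minus leaf was past the threshold in 290 genes (0.453%) and ovule minus flower buds in 225 (0.351%). Of the 749 ovule calls, 66 passed both tests in the direction of the ovule, 33 higher and 33 lower in DT-8. The ovule libraries enter both the call and these tests, so the 2 are not independent. Protodermal factor 2 (Gh_D10G0146) passed both: in flower buds it averaged 8.96 ± 0.608 FPKM in DT-8 and 8.75 ± 1.02 FPKM in SJ48, and in leaf 0.296 ± 0.108 FPKM in DT-8 and 0.339 ± 0.192 FPKM in SJ48 (SD, n = 3 each). RAD-like 1 (Gh_A13G0293), a small MYB-related factor, had 5.33, 5.48 and 5.08 FPKM in DT-8, against 0.573, 0.561 and 0.0764 FPKM in SJ48 in ovules and under 1 FPKM on average in the leaves and flower buds of both lines. Homeobox protein 40, CYCLIN D1;1, WRKY 3 and asparagine synthase 1 also passed both tests, all lower in DT-8 ovules. For sucrose synthase 3 (Gh_D08G1309) the log2 fold change was -0.45 in leaf and -0.17 in flower buds, neither of which was called.

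**Figure D4:**
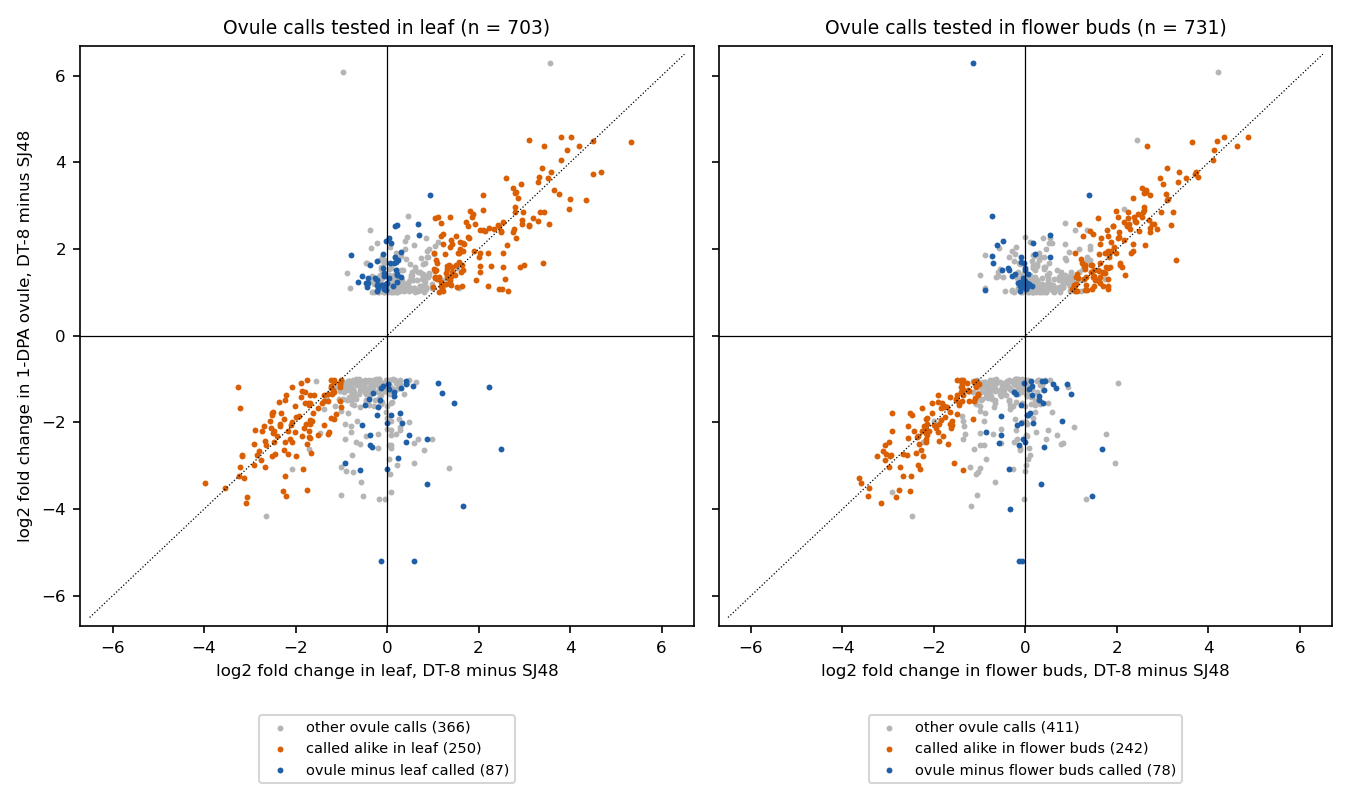
Log2 fold change (DT-8 minus SJ48, on log2(FPKM + 1)) in 1 DPA ovule against that in leaf (left) and flower buds (right), for the ovule calls tested in each tissue. Orange points were called in the same direction in the other tissue (250 in leaf, 242 in flower buds) and blue points, of the rest, passed the test of ovule minus that tissue (87 and 78). The dotted line marks equal change in both tissues.

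The other inbred lines show where the 2 parents stand. The 3 DT-8 libraries lay beyond all 9 libraries of SJ48, Z98-15 and 851-2 in 248 of the 749 called genes (33.1%; all tested genes, 3.71%). The 3 SJ48 libraries lay beyond all 9 of DT-8, Z98-15 and 851-2 in 300 (40.1%; all tested genes, 7.10%). A call already requires these lines to differ, so the shares were not tested. In the hybrid of SJ48 with DT-8, replicates 2 and 3 stand apart and were left out of a further fit. Replicate 1 of this hybrid lay between the parents' means in 578 called genes. The mean of its 3 replicates, which includes those that stand apart, did so in 542. The share over all tested genes was not counted.

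Q30 was followed through Z98-15, the line with libraries in both Q30 groups. Replicate 3 differed from the mean of replicates 1 and 2 by over 1 on the log2 scale in 4.92% of tested genes. Of the 749 calls, 37 did so in the direction of the call and 14 against it, and 698 stayed within 1. In 14 called genes the 5 low-Q30 ovule libraries all lay on the same side of the 16 others (1.87%; all tested genes, 0.0943%), and 13 of the 14 carry no gene name. MSTRG.41638 had 12.4, 13.03 and 13.7 FPKM in DT-8 and was listed at 0 in all 3 SJ48 libraries, and Z98-15 had 0.0469, 0 and 14.9 FPKM. MSTRG.44070 had 11.1, 9.25 and 10.6 FPKM in DT-8, against 0.178, 0.3103 and 0.257 FPKM in SJ48, with 0.161, 0.213 and 9.75 FPKM in Z98-15. The most abundant of these named here, MSTRG.51341, had 1699.7, 7252 and 1315 FPKM in DT-8, against 32.7, 28.2 and 32.3 FPKM in SJ48, with 30.7, 34.7 and 1091 FPKM in Z98-15. Little nuclei1 (Gh_Sca056842G01), outside that set, is a nuclear lamina-like protein gene that was listed at 0 in all 3 DT-8 libraries, against 5.195, 5.18 and 4.95 FPKM in SJ48, and had 5.73, 5.298 and 0 FPKM in Z98-15. These 4 genes moved with Q30 within Z98-15 as they did between the parents. In the other ovule libraries, all of the higher Q30 group, little nuclei1 did not sort by Q30. It had 4.83 to 5.18 FPKM in the hybrid of SJ48 with Z98-15 and 4.54 to 6.47 FPKM in that with DT-8. The other hybrid ran from 0 to 4.25 FPKM, and the remaining inbred line was at 0. In leaf the gene was called in the opposite direction, higher in DT-8 (log2 fold change 2.49, limma adjusted p = 0.00332). The part of sequencing quality in the calls of the 4 genes was not tested further.

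**Figure D5:**
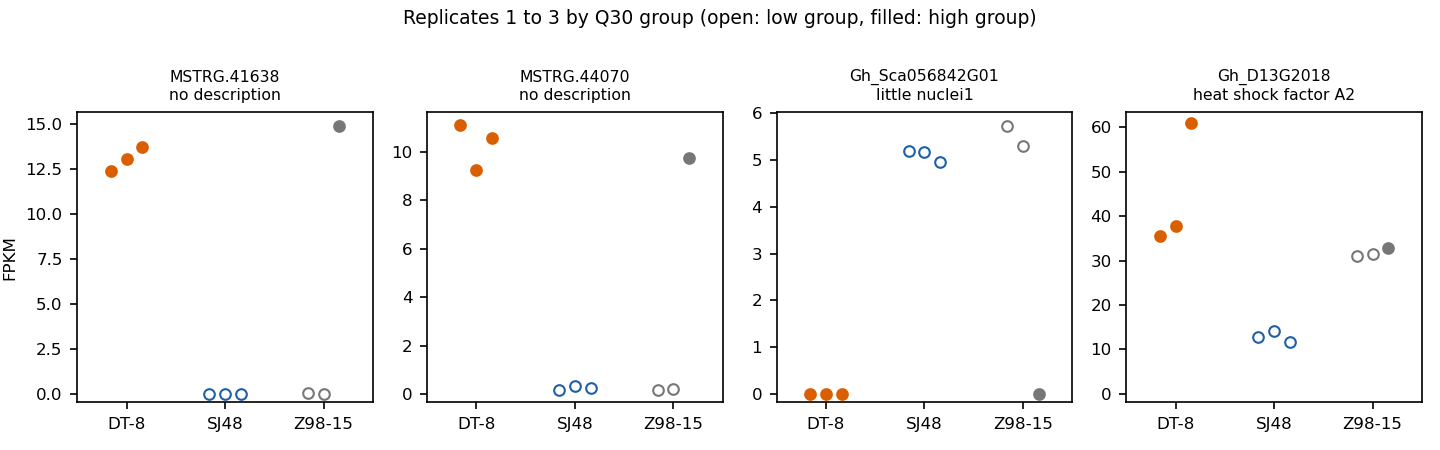
FPKM of 4 genes in the ovule replicates 1 to 3 of DT-8, SJ48 and Z98-15, from left to right within a line; open circles are libraries of the lower Q30 group. In the first 3 genes replicate 3 of Z98-15 takes the level of DT-8 and replicates 1 and 2 that of SJ48, whereas heat shock factor A2 (Gh_D13G2018) is at 31.1, 31.4 and 32.8 FPKM in Z98-15.

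With the Q30 group as a covariate 492 genes were called, 300 higher and 192 lower, and 327 of the 749 kept their call in the same direction. The sign was kept by 733 of 749. This fit rests on the Z98-15 libraries to part line and Q30, and its standard error was 1.84 times as large in the median. Of 64 called genes described here, 27 kept their call and 37 lost it. Those that kept it were Gh_D12G1971, Gh_D13G2018, Gh_D09G0981, Gh_D13G0372, Gh_D05G1486, Gh_D10G0146, Gh_A01G1434, Gh_D01G1673, Gh_D12G1856, Gh_A07G1077, Gh_D03G0269, Gh_A03G0507, Gh_A04G0783, Gh_Sca034072G01, Gh_D01G0390, Gh_D07G0318, Gh_D11G1074, Gh_A02G1617, Gh_D11G1879, Gh_A13G0293, Gh_D05G1561, Gh_A09G0220, Gh_A01G0110, Gh_A09G1448, Gh_A06G0372, Gh_A05G2005 and Gh_D08G0031. Those that lost it were both HSP90.1 genes, heat shock protein 81-3, factor A2 copy Gh_A13G1655, both FKBP genes, both galactinol synthases, MYB106, the SKU5 similar 5 copies on chromosome 12, xyloglucan endotransglucosylase/hydrolase 7, both sucrose synthase 3 genes, beta-amylase 1, the 3 called jasmonate genes, desaturase copy Gh_D04G1274, the ethylene-forming enzyme, gibberellin 2-oxidase 1, the peptide gene Gh_A09G2394, WRKY 18, both WRKY 70 genes, Gh_A12G2121, homeobox protein 40 copy Gh_A11G1721, redox responsive transcription factor 1, both dormancy genes, asparagine synthase 1, L27e, S5, MSTRG.41638, MSTRG.44070, MSTRG.51341 and little nuclei1.

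Of 9 candidate yield genes fixed by name, Gh_A08G2199 (JAZ1), described above, was the single call. The study reported Gh_D08G1467, Gh_A03G0889, Gh_A08G2199 and Gh_D05G0202 as differential in ovules of the low hybrid. It reported the others in flower buds of the high hybrid. The contrast here, between the parents in ovules, is a different comparison. The study names Gh_A08G2199 JAZ10 and Gh_A12G2183 GBSS1, while the names used here are the deposited descriptions. MAP kinase 4 (Gh_D08G1467), a negative regulator of defence in Arabidopsis, had 17.8, 16.6 and 16.2 FPKM in DT-8, against 8.64, 10.5 and 6.34 FPKM in SJ48 (log2 fold change 0.94 ± 0.17 (SE), limma adjusted p = 0.00354), just under the fold required, and passed it without SJ48 replicate 2 at 1.09. The EXS family gene Gh_A03G0889 had 28.7, 29.7 and 24.1 FPKM in DT-8, against 17.1, 15.1 and 11.9 FPKM in SJ48 (log2 fold change 0.87 ± 0.17 (SE), limma adjusted p = 0.00442). Both missed the fold required, though no library of either line overlapped the other. Gh_A03G1024, a BZR1 family gene, had 3.22, 2.43 and 3.96 FPKM in DT-8, against 2.73, 5.52 and 2.33 FPKM in SJ48 (log2 fold change -0.057 ± 0.41 (SE), limma adjusted p = 1) with overlap. The shaggy-like kinase Gh_D08G1440 (log2 fold change 0.22) and the ADP-glucose pyrophosphorylase gene Gh_D07G1312 (0.065) were under 1 FPKM in both lines and not called. The pentatricopeptide repeat gene Gh_D05G0202 had 0.392, 0.1696 and 0.536 FPKM in DT-8, was listed at 0 in SJ48 and was not called. The glycosyl hydrolase 9A4 gene Gh_A08G2210 and the glycosyltransferase gene Gh_A12G2183 did not exceed 0.5 FPKM in any ovule library and were not tested.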

How the data were processed

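RNA was sequenced from 63 libraries by paired-end RNA-seq. The authors aligned reads to the upland cotton genome with HISAT 2.0 and estimated transcripts with StringTie 1.3, per the study's methods, which do not name the build. Deposited values are the authors' FPKM, not read counts, so no count test was run. The sources give the sequencing total of each library but not the reads behind each gene. A further 21 FPKM columns belong to no sample and were not used, and no columns of the authors' own comparisons were used. Lines were compared on log2(FPKM + 1) with limma 3.58.1 (R 4.3.3, empirical Bayes with trend and robust variance, Benjamini-Hochberg adjustment), on all 21 ovule libraries as 7 groups. Genes needed 0.5 FPKM in at least 1 ovule library. A gene was called at an adjusted p under 0.05 with an absolute log2 fold change over 1. The code was tested on simulated data. Leaf and flower buds were fitted alike, and the tissue differences in a single fit. Replicates are labelled as biological. The p-values of the ovule comparison rest on the spread within all 7 groups of 3 ovule libraries, not on DT-8 and SJ48 alone. These groups include the hybrid of SJ48 with DT-8, in which some replicates stand apart.

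Genes named are, among described calls without overlap, the 15 largest rises and falls, up to 3 called list members in each direction, the 5 largest tissue differences in each direction, 9 candidate genes and markers. Others were chosen after their values were seen: Gh_D12G2436, Gh_D13G1363, Gh_A13G1655, Gh_D09G0981, Gh_D09G1979, Gh_A09G1859, Gh_A11G0980, Gh_A08G1811, Gh_D13G0372, Gh_D05G1486, Gh_D12G0344, Gh_D07G0317, Gh_A11G1721, Gh_A04G0095, Gh_D03G0027, Gh_A06G1139, Gh_D06G1400, Gh_D09G0861, the aldehyde dehydrogenase genes, Gh_A11G2471, Gh_A11G2472, Gh_A06G0367, Gh_D08G1976 and Gh_A02G1249. Members and lists were chosen with earlier results of these data known. Genes were named from the deposited descriptions only, and reads shared by close copies in the A and D subgenomes cannot be told apart here. Settings tried were the pseudocount, filters, TMM rescaling, the samples in the fit, a replicate block, a Q30 covariate and leaving out each replicate.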

Additional observations from a re-analysis of the deposited data

Results flagged for a closer look

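The difference between DT-8 and SJ48 in ovules was tested against the same difference in leaf and in flower buds with an interaction contrast in limma, and 32 of the genes named in the text were past the threshold (adjusted p under 0.05 and a difference above 1 or below -1 on the log2(FPKM + 1) scale). Positive values mean that DT-8 minus SJ48 was higher in ovules.

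For ovule minus leaf the positive differences were those of MSTRG.41638 (3.595, adjusted p = 7.08e-09), MSTRG.44070 (3.02, adjusted p = 3.08e-07), Gh_A12G2300 (2.66, adjusted p = 0.0183), Gh_A03G0507 (2.36, adjusted p = 2.32e-06), Gh_D02G2086 (2.23, adjusted p = 0.000281), Gh_A13G0293 (2.205, adjusted p = 0.000783), Gh_D01G1673 (2.01, adjusted p = 0.0334), Gh_A01G1434 (1.96, adjusted p = 0.0107), Gh_Sca078461G01 (1.63, adjusted p = 0.028), Gh_D05G1486 (1.62, adjusted p = 0.00537), Gh_A02G1617 (1.57, adjusted p = 0.00507), Gh_A11G2472 (1.52, adjusted p = 0.0213), Gh_A05G0415 (1.52, adjusted p = 6.17e-05), Gh_A08G1811 (1.503, adjusted p = 0.0245), Gh_A04G0095 (1.33, adjusted p = 0.00104) and Gh_D10G0146 (1.17, adjusted p = 0.00559). For ovule minus leaf the negative differences were those of Gh_D07G0812 (-5.77, adjusted p = 3.55e-10), Gh_Sca056842G01 (-5.099, adjusted p = 0.00129), Gh_A04G0096 (-4.01, adjusted p = 4.43e-08), Gh_D11G1879 (-2.36, adjusted p = 0.00237), Gh_D07G0318 (-2.003, adjusted p = 0.00701), Gh_D03G0269 (-1.92, adjusted p = 0.00119), Gh_A11G1721 (-1.86, adjusted p = 0.002), Gh_Sca010556G01 (-1.53, adjusted p = 0.0164), Gh_D09G0861 (-1.51, adjusted p = 0.0366) and Gh_A07G1077 (-1.44, adjusted p = 0.0275). For ovule minus flower buds the positive differences were those of MSTRG.51341 (7.46, adjusted p = 0.00447), MSTRG.41638 (3.81, adjusted p = 6.22e-09), MSTRG.44070 (3.28, adjusted p = 1.17e-07), Gh_D13G2018 (2.399, adjusted p = 0.0174), Gh_A13G0293 (2.16, adjusted p = 0.00155), Gh_D02G2086 (2.12, adjusted p = 0.000682), Gh_A11G2472 (1.81, adjusted p = 0.00862), Gh_D05G1486 (1.73, adjusted p = 0.00447), Gh_A02G1617 (1.58, adjusted p = 0.00675), Gh_A11G0980 (1.51, adjusted p = 0.0498), Gh_A08G1811 (1.42, adjusted p = 0.0429), Gh_D11G1074 (1.39, adjusted p = 0.0157), Gh_A04G0095 (1.298, adjusted p = 0.00225) and Gh_D10G0146 (1.09, adjusted p = 0.0136). For ovule minus flower buds the negative differences were those of Gh_D07G0812 (-5.11, adjusted p = 2.03e-09), Gh_Sca056842G01 (-4.27, adjusted p = 0.00892), Gh_A04G0096 (-3.67, adjusted p = 1.17e-07), Gh_D07G0318 (-1.91, adjusted p = 0.0146), Gh_D11G1879 (-1.91, adjusted p = 0.0183), Gh_D09G0861 (-1.88, adjusted p = 0.0118), Gh_D06G1939 (-1.88, adjusted p = 0.00189), Gh_D03G0269 (-1.75, adjusted p = 0.00419), Gh_Sca010556G01 (-1.72, adjusted p = 0.00991), Gh_D10G0313 (-1.65, adjusted p = 0.0383) and Gh_A11G1721 (-1.32, adjusted p = 0.0361).

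Gh_D07G0812, Gh_A04G0096 and Gh_Sca056842G01 were listed at 0 in all 3 DT-8 ovule libraries and MSTRG.41638 in all 3 SJ48 ovule libraries, so these sizes depend on the pseudocount. MSTRG.41638, MSTRG.44070, MSTRG.51341 and Gh_Sca056842G01 also moved with Q30 within Z98-15. RAD-like 1 (Gh_A13G0293), redox responsive transcription factor 1 (Gh_D02G2086) and the MBOAT gene Gh_A04G0096 averaged under 1 FPKM in the leaves and flower buds of both lines. The ovule libraries enter both the ovule calls and these tests.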

How the results depend on the processing

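With a pseudocount of 0.1 the ovule comparison gave 1152 calls (581 higher, 571 lower), with the Q30 group as a covariate 492 (300 higher, 192 lower) and at the study's thresholds 1393 (596 higher, 797 lower), against 749 (383 higher, 366 lower). Under the Q30 covariate 3 of the genes named in the text changed sign: Gh_Sca056842G01 to 0.0925, MSTRG.41638 to -0.1468 and MSTRG.44070 to -0.0028. Of 64 called genes described in the report, 37 lost their call under it, these 3 included. No filter gave 717 calls, a floor of 1 FPKM throughout either line 781, TMM 750, the 2 lines alone 839 and the 4 inbred lines 836. A fit without the 2 hybrid libraries that stand apart, replicates 2 and 3 of SJ48 with DT-8, gave 859. Leaving out 1 replicate gave 644 to 722 calls in ovules, 237 to 324 for ovule minus leaf and 157 to 245 for ovule minus flower buds. The same numbers did not pair the replicates (r of the same-numbered deviations 0.0079, 0.00063 and -0.022). With a replicate block there were 751 calls, 729 of them shared, and 262 and 184 tissue differences for leaf and flower buds. Except under the Q30 covariate, 447 of 749 genes kept their call in every alternative. FPKM keep no read counts, so low values carry an unmeasured counting error. The causes of these changes were not tested.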

Other observations

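Stress and aldehyde metabolism genes not described so far were higher in DT-8 ovules in small groups, chosen after their values were seen. Of 70 genes for adenine nucleotide alpha hydrolases-like (universal stress) proteins, 5 were higher and 0 lower (7.14%; all tested genes, 1.26%), and with the Q30 group as a covariate 2 were higher and 0 lower. Gh_A11G2472 had 9.198, 9.93 and 14.8 FPKM in DT-8, against 2.57, 3.07 and 2.42 FPKM in SJ48 (log2 fold change 1.71 ± 0.197 (SE), limma adjusted p = 3.58e-05). Its neighbour by number Gh_A11G2471 had 13.7, 15.4 and 23.1 FPKM in DT-8, against 5.83, 5.18 and 6.53 FPKM in SJ48 (log2 fold change 1.399 ± 0.17 (SE), limma adjusted p = 5.07e-05). Gh_A06G0367 had 134, 115 and 134 FPKM in DT-8, against 107, 31.3 and 32.3 FPKM in SJ48, with 1 SJ48 library close to DT-8, and lost its call without any 1 library other than SJ48 replicate 1. Of 47 aldehyde dehydrogenases, which oxidise aldehydes formed under stress, 4 were higher and 1 lower (10.6%), and with that covariate 3 were higher and 0 lower. Aldehyde dehydrogenase 11A3 (Gh_A05G0415) had 18.5, 20.6 and 18.3 FPKM in DT-8, against 4.59, 5.24 and 5.07 FPKM in SJ48 (log2 fold change 1.75 ± 0.092 (SE), limma adjusted p = 1.66e-09), and Gh_A05G0479 had 18.05, 18.03 and 18.3 FPKM in DT-8, against 7.13, 7.895 and 7.804 FPKM in SJ48 (log2 fold change 1.15 ± 0.09 (SE), limma adjusted p = 3.15e-07). Aldehyde dehydrogenase 2C4 (Gh_A05G0157) fell to 4.44, 8.38 and 8.53 FPKM in DT-8, against 23.5, 25.5 and 18.9 FPKM in SJ48, and lost its call without SJ48 replicate 1, SJ48 replicate 2 or DT-8 replicate 1. The homeobox list was also drawn up after the values were seen. It had 0 higher and 6 lower of 186 (3.23%; all tested genes, 1.26%), and 2 higher and 4 lower with the Q30 group as a covariate. Beside homeobox protein 40 the 6 included homeobox gene 8 (Gh_D08G1976, 0.903, 0.713 and 0.859 FPKM in DT-8, against 3.22, 3.099 and 3.202 FPKM in SJ48) and homeobox protein 22 (Gh_A02G1249, 3.23, 1.102 and 1.61 FPKM in DT-8, against 6.77, 4.61 and 5.73 FPKM in SJ48), which was lost without 4 of the 6 libraries.

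Aquaporins, which carry water across membranes, had 1 higher and 2 lower of 69 (4.35%; all tested genes, 1.26%). Plasma membrane intrinsic protein 1;4 (Gh_D06G2371) had 7.51, 11.7 and 13.9 FPKM in DT-8, against 6.56, 2.81 and 2.41 FPKM in SJ48. NOD26-like intrinsic protein 1;2 (Gh_D10G0313) had 1.003, 1.896 and 1.24 FPKM in DT-8, against 4.298, 3.605 and 6.09 FPKM in SJ48. Plasma membrane intrinsic protein 2;4 (Gh_A05G0889) had 5.13, 2.17 and 5.07 FPKM in DT-8, against 15.8, 6.698 and 15.8 FPKM in SJ48 and was lost without SJ48 replicate 1, SJ48 replicate 3 or DT-8 replicate 2. Genes next to each other by number were called together in 9 pairs, 5 in the same and 4 in opposite directions. The opposite pairs included the MBOAT genes, with Gh_A04G0095 at 2.81, 2.42 and 2.74 FPKM in DT-8, against 0, 0.0881 and 0.00412 FPKM in SJ48, and Gh_A04G0096 listed at 0 in DT-8, against 14.6, 15.4 and 15.2 FPKM in SJ48. In a second pair, calcium-dependent phosphotriesterase gene Gh_D03G0028 had 7.92, 9.64 and 8.896 FPKM in DT-8, against 1.34, 1.32 and 1.13 FPKM in SJ48, and its neighbour Gh_D03G0027 had 0.6498, 0.649 and 0.232 FPKM in DT-8, against 2.78, 3.93 and 2.72 FPKM in SJ48. Called A and D copies that share a chromosome number and a single-gene description moved in the same direction in 9 of 9 pairs. Counting all descriptions, family names included, 19 of 22 such pairs did. Both copies had to be called, so pairs with 1 uncalled copy, such as protodermal factor 2, do not enter these counts. The share over all tested pairs was not counted, and no conclusion on how copies move together is drawn.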
